A study of Mus musculus with 12 samples.

Results

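Bile salts, steroid conjugates, drugs and other organic ions enter and leave cells through solute carriers of a few related families. In liver, carriers on the blood-facing side of the hepatocyte take these compounds up, and pumps on the canalicular side pass them into bile. The Slc10a family holds the sodium-coupled bile salt carriers, the Slco family the organic anion transporting polypeptides, the Slc22a family the carriers of organic cations, organic anions and carnitine, and the Slc47a family the exchangers that extrude organic cations. The genes described here are all those whose single platform annotation symbol starts with Slco, Slc10a, Slc22a or Slc47a. There were 42 of them among 18193 genes tested, with 15 in Slco, 5 in Slc10a, 21 in Slc22a and 1, Slc47a1, in Slc47a. Where several probe sets measured a gene, the brightest on average over the 12 arrays stood for it.

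The arrays measured total RNA of lung and liver from female NOD/SCID mice, an immunodeficient strain without mature T and B cells, which were bred in house and were 8 to 10 weeks old when the experiments began. The 4 groups were lung of virgin mice, lung of pregnant mice at day 16, liver of virgin mice and liver of pregnant mice at day 16, with 3 arrays each. Every array held a pool of RNA from 2 mice, so p-values here rest on differences between pools of one group. Precision is limited by having 3 pools in a group. Values are log2 expression values computed by the authors with RMA, and a log2 difference of 1 is a doubling.

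The arrays carried the marker genes of their labelled tissue. The summed level of 6 hepatocyte markers (log2 of the summed linear values) was 16.46 to 16.51 on liver arrays and 7.04 to 8.07 on lung arrays. That of 3 measured alveolar type 2 markers was 15.29 to 15.43 on lung arrays and 6.07 to 6.39 on liver arrays. Arrays of the same group correlated at 0.9917 or above. Control probe sets for poly-A RNA spiked into the samples averaged 11.84 to 12.34 (log2) on 10 arrays. Pool 3 of virgin liver averaged 4.95, and pool 3 of pregnant liver 5.33. For the named genes called in liver, changes that differ by over 1.5 times between the 2 kinds of array are therefore given within each.

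Promoters are shown for the genes on which the liver results turn: the bile salt carrier Slc10a1, the member with the largest rise (Slc22a2), the largest faller of Slco (Slco1a4), and 3 neighbours of the Slc22a cluster on chromosome 19, 2 of which fell in pregnant liver. Each line gives the 250 bases before a transcription start in RefSeq (GRCm38.p6), read 5′ to 3′ on the strand of the gene, and capitals mark a match to TTCNNNGAA, the letters of a STAT5-type site. Slc10a1 has 2 annotated starts, of which the one farther upstream is shown. The sequences lie at chr12:80968706-80968955 (minus strand) for Slc10a1, chr6:141856221-141856470 (minus) for Slco1a4, chr17:12583939-12584188 (plus) for Slc22a2, chr19:7802668-7802917 (minus) for Slc22a26, chr19:8218901-8219150 (minus) for Slc22a29 and chr19:8405106-8405355 (minus) for Slc22a30.
Slc10a1: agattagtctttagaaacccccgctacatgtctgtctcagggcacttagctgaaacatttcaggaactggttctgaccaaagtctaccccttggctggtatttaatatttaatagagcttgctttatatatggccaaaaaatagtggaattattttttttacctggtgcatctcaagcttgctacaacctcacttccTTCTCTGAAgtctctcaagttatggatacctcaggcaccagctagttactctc
Slco1a4: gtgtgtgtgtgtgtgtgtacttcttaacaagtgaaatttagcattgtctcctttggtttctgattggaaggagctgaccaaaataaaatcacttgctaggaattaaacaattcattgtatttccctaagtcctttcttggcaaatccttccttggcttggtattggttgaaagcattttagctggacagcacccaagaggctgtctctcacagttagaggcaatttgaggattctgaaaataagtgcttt
Slc22a2: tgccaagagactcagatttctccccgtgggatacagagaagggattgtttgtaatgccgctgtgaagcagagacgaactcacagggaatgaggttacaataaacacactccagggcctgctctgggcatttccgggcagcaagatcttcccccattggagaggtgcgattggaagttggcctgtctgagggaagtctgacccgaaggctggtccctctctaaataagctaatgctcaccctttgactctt
Slc22a26: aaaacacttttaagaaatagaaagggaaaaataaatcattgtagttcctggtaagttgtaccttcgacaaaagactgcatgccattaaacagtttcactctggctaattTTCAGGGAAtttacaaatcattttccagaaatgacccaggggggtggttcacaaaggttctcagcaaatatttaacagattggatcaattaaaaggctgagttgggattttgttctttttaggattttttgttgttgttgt
Slc22a29: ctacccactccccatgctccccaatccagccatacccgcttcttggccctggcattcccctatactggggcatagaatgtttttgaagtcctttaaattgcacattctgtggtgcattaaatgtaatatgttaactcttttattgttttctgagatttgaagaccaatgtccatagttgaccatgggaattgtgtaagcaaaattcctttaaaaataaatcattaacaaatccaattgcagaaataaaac
Slc22a30: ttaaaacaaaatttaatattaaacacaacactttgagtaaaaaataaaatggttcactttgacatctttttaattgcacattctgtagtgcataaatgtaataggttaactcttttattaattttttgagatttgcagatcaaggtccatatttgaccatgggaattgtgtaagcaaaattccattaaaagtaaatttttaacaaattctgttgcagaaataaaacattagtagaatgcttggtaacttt

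RefSeq promoters were matched by symbol for 36 of the 42 genes, with 42 starts. The letters TTCNNNGAA, which read the same on both strands, stood in 8 of these 42 windows and in 7.02% of all 32851 windows of the same length. The genes were Slc10a1, Slc22a15, Slc22a16, Slc22a19, Slc22a26, Slco1a5, Slco1b2 and Slco2b1. In Slc10a1 the match lay 53 to 45 bases before the start farther upstream, and the window of its other start held none. In Slc22a26 the match lay 141 to 133 bases before the start. The palindromic HNF1 consensus and the inverted repeat element of the bile acid receptor, searched on both strands, were in none of the 42 windows, and in 0.00913% and 0.00609% of all windows. Exact strings this rare were unlikely to be met in 42 windows, so the search cannot show that such sites are absent. Between the chromosome 19 neighbours, Slc22a29 and Slc22a30 were identical at 65.2% of 279 aligned positions, Slc22a26 and Slc22a30 at 56.4% of 275, and Slc22a26 and Slc22a29 at 45.8% of 284. The same alignment gave 46.4% to 48.7% between these 3 promoters and that of Slc22a2, a gene of the same family on chromosome 17. The promoter of Slc22a27, which also fell, is not shown. It was identical at 49.3% to 50.9% to these 3 and at 50.5% to that of Slc22a2. That of the uncalled neighbour Slc22a19 matched Slc22a30 at 63.4%, Slc22a26 at 54.4% and Slc22a29 at 53.6%.

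In virgin mice Slc10a1, Slco1b2, Slc22a30, Slco1a1, Slc22a27 and Slc22a7 stood farthest above lung in liver, and Slco4c1, Slc10a6, Slco3a1, Slco2a1, Slc10a7 and Slc10a3 farthest above liver in lung. Of the 42 genes 21 were lower and 7 higher in virgin lung than in virgin liver at a limma adjusted p under 0.05, 28 in all, or 66.7%. The background was 68.7% of all genes tested, 34.4% lower and 34.3% higher in lung, so the share called among the transporter genes was close to that of all genes. Slc22a held 11 genes lower in lung and 0 higher, Slco 7 lower and 4 higher, Slc10a 2 lower and 3 higher, and Slc47a1 was lower. Many liver carriers read below 5 in lung, a range in which the files do not show whether a probe set exceeds background, so their differences are given without a fold.

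Slc10a1, which encodes the sodium-coupled carrier that takes bile salts from blood into hepatocytes, read 12.73, 12.55 and 12.68 in the 3 virgin liver pools and 3.50, 2.37 and 3.24 in the virgin lung pools. The difference, lung minus liver, was -9.61 ± 0.24 (log2, SE, n = 3 per group, limma adjusted p = 9.18e-14). Slco1b2, the main organic anion carrier of the mouse hepatocyte, differed by -8.40 ± 0.14 (limma adjusted p = 8.44e-16), Slc22a30 by -7.07, and Slco1a1, a carrier of steroid conjugates, by -6.54. Slc22a27 differed by -6.03, closely followed by the organic anion carrier gene Slc22a7. Slc47a1, which encodes the exchanger that moves organic cations into bile and urine, differed by -5.76 ± 0.21 (limma adjusted p = 4.86e-12).

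Higher in virgin lung were Slco4c1, an organic anion carrier best known from kidney (log2 difference 4.64 ± 0.12, SE, limma adjusted p = 1.27e-13), Slc10a6, which encodes a carrier of sulfated steroids (3.02), Slco3a1 (2.97), the prostaglandin carrier gene Slco2a1 (1.64), Slc10a7 (1.10) and Slc10a3 (0.75). In virgin liver Slco4c1 read 3.10, 2.81 and 2.90, and Slc10a6 read 4.45, 5.29 and 5.35. All 3 values of Slco4c1 and the lowest of Slc10a6 lie below 5, so the same limit holds for the liver side of these differences. The remaining gene called higher was Slco1c1, a thyroid hormone carrier of brain vessels, with a difference of 0.22 at values below 3 in both tissues. Slco2a1 read 10.93, 10.93 and 11.22 in the virgin lung pools and 9.34, 9.30 and 9.52 in the virgin liver pools, a 3.12-fold difference for this probe set. Its further probe sets averaged 6.81, 9.09 and 7.19 in virgin lung and 5.66, 6.49 and 6.26 in virgin liver, so the fold depends on the probe set. For Slc10a7 the mean of its 4 probe sets gave a difference of 0.12, which did not pass (adjusted p = 0.201). The carnitine carrier gene Slc22a5 did not pass (log2 difference 0.19, adjusted p = 0.0732).

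**Figure D1:**
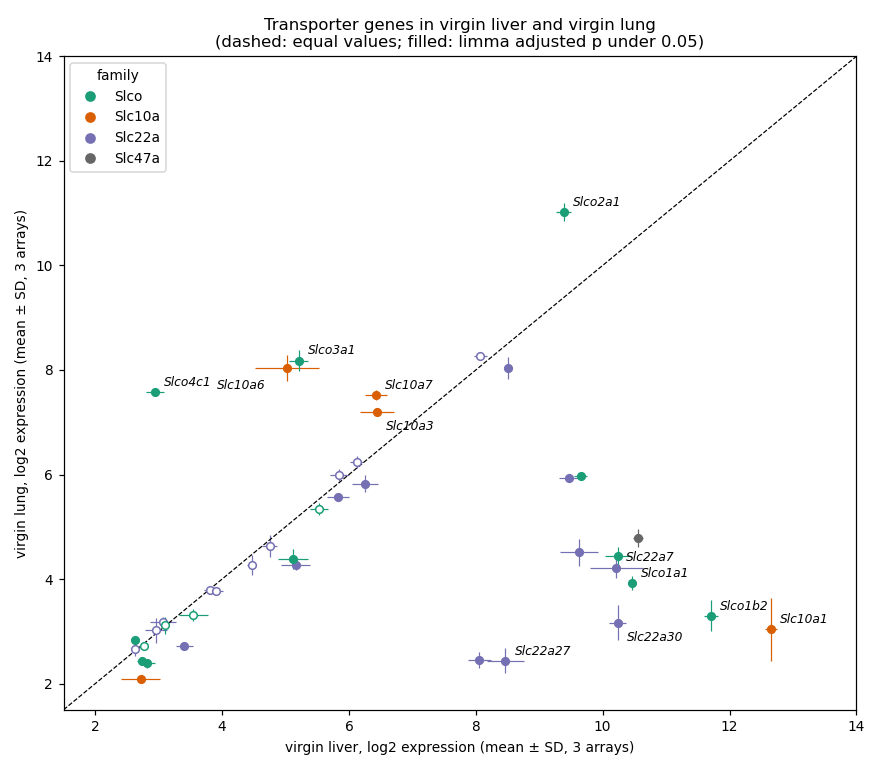
Mean log2 expression (± SD, 3 arrays) of the 42 transporter genes in virgin liver (x axis) and virgin lung (y axis), coloured by family; filled points passed limma at an adjusted p under 0.05. Slc10a1, Slco1b2 and the liver-rich Slc22a genes lie far below the line of equal values, while Slco4c1, Slco3a1, Slc10a6 and Slco2a1 lie above it.

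In pregnant liver at day 16 a set of uptake carrier genes was lower: the bile salt carrier Slc10a1, the organic anion carriers Slco1b2, Slco1a4 and Slco2b1, and the neighbouring Slc22a26, Slc22a27 and Slc22a29, by 1.34-fold to 2.10-fold. The organic cation carrier gene Slc22a2 rose by 1.61 on the log2 scale, from virgin values below 5, and Slc22a23 rose 1.41-fold. With Slc22a4, at a dim level, 8 genes fell and 2 rose (limma adjusted p under 0.05), and 32 did not pass. That is 10 of 42, or 23.8%, against a background of 13.6% of all genes, of which 7.62% were called lower and 6.02% higher. By family, 3 of 15 Slco genes, 1 of 5 Slc10a genes and 4 of 21 Slc22a genes fell, the 2 risers were in Slc22a, and Slc47a1 did not pass. Among the 32 genes that did not pass, the lowest adjusted p was 0.0589, for Slc22a16 (log2 change 0.30), and the log2 changes ran from -0.42 for Slc22a30 to 0.55 for Slc22a7. The median log2 change was -0.06 in Slco, 0.05 in Slc10a and -0.02 in Slc22a, beside -0.01 over all genes. The arrays of virgin and pregnant liver did not overlap for 11 lower and 6 higher transporter genes, where 15.3% and 12.7% of all genes did so.

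Of the 42 genes 28 read above 5 on at least 3 arrays, and 14 did not. Among the genes called in liver, Slc22a4 was under this limit on all 12 arrays, and Slc22a2 reached it on the 3 pregnant liver arrays, where it was high. Bulk RNA cannot tell fewer cells of a type from less RNA per cell. The 6 hepatocyte markers did not pass in liver, with log2 changes from -0.25 to 0.16, and their summed level was 16.49 to 16.51 in virgin and 16.46 to 16.48 in pregnant liver. All 3 measured neutrophil markers rose in pregnant liver, with a summed level of 8.10 to 8.27 in virgin and 9.52 to 9.87 in pregnant pools. Of 8 measured pancreas acinar markers 3 rose and 2 fell, with a summed level of 10.23 to 10.53 in virgin and 9.61 to 10.05 in pregnant pools. Of 3 erythroid markers 1 rose, with a summed level of 7.37 to 7.49 in virgin and 8.32 to 8.78 in pregnant pools, and 1 of 4 stellate cell and 1 of 5 Kupffer cell markers fell. The part of these cells in the transporter changes was not tested. The 6 kidney tubule markers did not pass in liver.

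Among the bile salt carriers, Slc10a1 read 12.73, 12.55 and 12.68 in virgin liver and 11.77, 11.82 and 11.55 in pregnant liver. All pregnant pools were lower than all virgin pools. The change was -0.94 ± 0.24 (log2, SE, n = 3 per group, limma adjusted p = 0.0196), a 1.92-fold fall. Its second probe set changed by -0.89. The adjusted p of the chosen probe set was 0.061 without virgin liver pool 1, 0.0559 without virgin liver pool 3, 0.059 without pregnant liver pool 3, and 0.118 without both arrays that lack spike-in signal. The other 4 Slc10a genes did not pass. Slc10a3, whose substrate is not established, had a change of 0.35 (limma adjusted p = 0.0785), and Slc10a2, the ileal bile salt carrier, had a mean below 3 in both liver groups.

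The Slco genes that fell are uptake carriers of the blood-facing hepatocyte membrane. Slco1b2 takes up bile salts, bilirubin conjugates and many drugs. It read 11.79, 11.74 and 11.58 in virgin and 11.08, 11.04 and 10.90 in pregnant liver, with no overlap. The change was -0.70 ± 0.14 (log2, SE, n = 3 per group, limma adjusted p = 0.00327), and the call held on removal of any 1 liver array. Of its 4 further probe sets, those that read above 5 in virgin liver changed by -0.99 and -0.80, and the 2 dim ones by -0.19 and 0.05.

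Slco1a4, a carrier of organic anions and cardiac glycosides that is also known from brain vessels, read 10.34, 10.00 and 10.38 in virgin and 9.52, 9.36 and 8.64 in pregnant liver. Pregnant pool 3 was the lowest of the 6, and the groups did not overlap. The change was -1.07 ± 0.18 (log2, SE, limma adjusted p = 0.00138), and amounted to -0.73 in pools 1 and 2 but -1.74 in pool 3, whose arrays lack spike-in signal. The call held on removal of any 1 liver array.

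Slco2b1, a carrier of steroid sulfates, read 9.75, 9.55 and 9.67 in virgin and 9.09, 9.21 and 9.39 in pregnant liver. The groups did not overlap, with a change of -0.42 ± 0.10 (log2, SE, limma adjusted p = 0.0118), which was -0.50 within pools 1 and 2 and -0.27 within pool 3. Its further probe sets changed by -0.35 and 0.24, and the mean of all 3 by -0.18 (adjusted p = 0.0967). The adjusted p was 0.0515 without virgin liver pool 1, 0.051 without pregnant liver pool 1, and 0.055 with the liver arrays fitted alone.

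The remaining 12 Slco genes did not pass in liver, with log2 changes from -0.18 to 0.31. Slco1a1 read 10.51, 10.49 and 10.39 in virgin and 10.45, 10.22 and 10.19 in pregnant liver, groups that overlapped, with a change of -0.17 ± 0.12 (SE, limma adjusted p = 0.395). Slco2a1 had a change of -0.01, Slco3a1 of -0.10 and Slco4c1 of 0.27. On chromosome 6 Slco1b2, Slco1a4 and Slco1a1 lie near each other, with Slco1c1 on one side and Slco1a6 and Slco1a5 on the other. Along this row the liver changes were 0.26 for Slco1c1, -0.70 for Slco1b2, -1.07 for Slco1a4, -0.17 for Slco1a1, 0.20 for Slco1a6 and -0.03 for Slco1a5. Gm5724, between Slco1b2 and Slco1a4, and Gm6614, between Slco1a1 and Slco1a6, were not analysed here. Slco1c1, Slco1a6 and Slco1a5 read below 5 on all arrays.

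Among the organic cation carriers, Slc22a2, known as the uptake carrier of cations such as metformin in the kidney tubule, read 4.48, 4.53 and 4.39 in virgin and 5.99, 5.97 and 6.28 in pregnant liver. Every pregnant pool was above every virgin pool. The change was 1.61 ± 0.12 (log2, SE, n = 3 per group, limma adjusted p = 7.03e-07), and the call held on removal of any 1 liver array. In lung it read between 4.04 and 4.41 in both states. The virgin liver values lie below 5, and whether they exceed background is not known from the files.

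Slc22a23, a family member without an established substrate, read 8.47, 8.52 and 8.55 in virgin and 8.96, 9.06 and 9.03 in pregnant liver. The groups were tight and apart, with a change of 0.50 ± 0.10 (log2, SE, limma adjusted p = 0.00466) that was also called on removal of any 1 liver array. Slc22a4, the ergothioneine carrier gene, changed by -0.38 ± 0.10 (SE, limma adjusted p = 0.0248) at values of 2.88 to 3.56. It was -0.24 within pools 1 and 2 and -0.67 within pool 3, and its adjusted p was 0.0534 without virgin liver pool 1, 0.0965 without virgin liver pool 3 and 0.0772 without pregnant liver pool 3. The adjusted p of Slc22a4 was 0.189 without both arrays that lack spike-in signal and 0.0807 with the liver arrays fitted alone. Slc22a5, the carnitine carrier gene, had a change of 0.05, Slc22a18, an imprinted gene, of 0.15, and Slc22a15 and Slc22a17 of -0.24 and -0.25, and none of these passed.

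The organic anion branch of Slc22a held the cluster on chromosome 19. Slc22a29 read 8.00, 8.26 and 7.90 in virgin and 7.04, 6.86 and 7.06 in pregnant liver, with no overlap. Its change was -1.07 ± 0.13 (log2, SE, n = 3 per group, limma adjusted p = 5.72e-05). Slc22a26 read 9.44, 9.97 and 9.47 in virgin and 8.43, 8.62 and 8.71 in pregnant liver, again with no overlap. Its change was -1.04 ± 0.17 (SE, limma adjusted p = 0.000792), with -1.18 within pools 1 and 2 and -0.76 within pool 3, and -1.12 for its second probe set. Both calls held on removal of any 1 liver array.

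Slc22a27 read 8.39, 8.79 and 8.21 in virgin and 7.60, 7.69 and 7.50 in pregnant liver, with all pregnant pools lower. Its change was -0.87 ± 0.22 (log2, SE, limma adjusted p = 0.0169), and the adjusted p was 0.0778 without virgin liver pool 2. Slc22a30 read 10.13, 10.38 and 10.20 in virgin and 9.75, 9.82 and 9.87 in pregnant liver. These groups did not overlap either, yet the change of -0.42 ± 0.19 (SE, limma adjusted p = 0.173) did not pass with all 12 arrays, and it passed with the liver arrays alone (adjusted p = 0.0417). The probe sets of Slc22a27 and Slc22a29 carry the suffix that marks probes shared with other transcripts, so their signals may not be separate measurements of these similar genes.

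In map order the protein-coding row runs Slc22a19, Slc22a26, Slc22a27, Slc22a28, Slc22a29, Slc22a30, Slc22a8 and Slc22a6. Slc22a28 was not analysed here. At one end Slc22a19 had a change of 0.13, and at the other Slc22a8 and Slc22a6, the classical organic anion carriers of kidney, had changes of 0.30 and 0.05. These 3 genes read below 5 on all arrays. Slc22a7, an organic anion carrier of liver on another chromosome, read 9.77, 10.61 and 10.27 in virgin and 10.55, 10.78 and 10.96 in pregnant liver. The groups overlapped, and the change of 0.55 ± 0.19 (log2, SE) did not pass (limma adjusted p = 0.0689), with an adjusted p of 0.017 without virgin liver pool 2. The urate carrier gene Slc22a12 had a change of -0.15, and Slc47a1 one of -0.22 ± 0.21 (SE, limma adjusted p = 0.564), although its virgin and pregnant pools did not overlap.

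**Figure D2:**
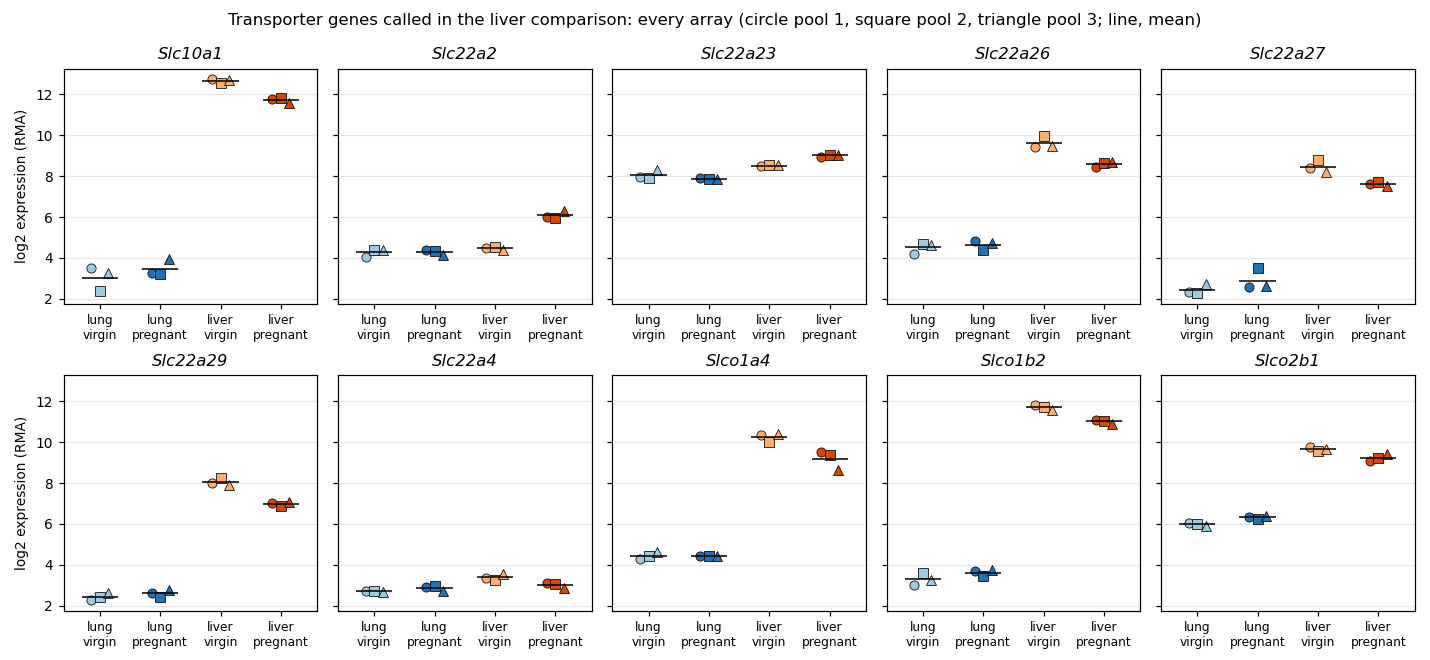
Log2 expression (RMA) on every array for the 10 transporter genes called in the liver comparison, by group, with the group mean as a line and the pool number as the symbol. In liver the pregnant pools of Slc22a2 and Slc22a23 lie above all virgin pools and those of the other 8 genes lie below, while the lung values of virgin and pregnant pools overlap for all but Slco2b1.

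**Figure D3:**
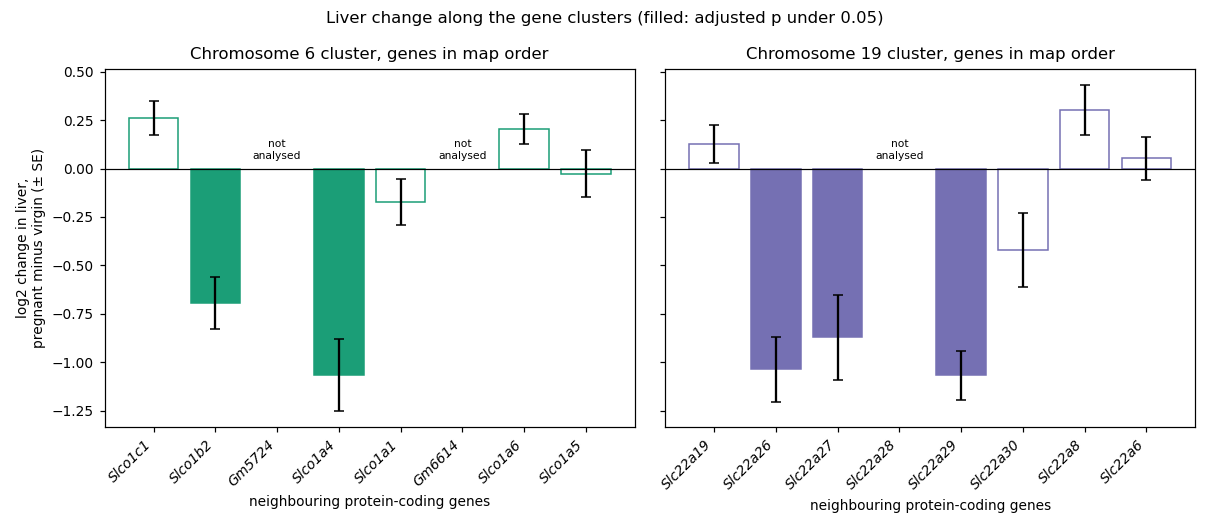
Log2 change in liver, pregnant minus virgin (bars, ± SE), for neighbouring genes in map order on chromosome 6 and chromosome 19; filled bars passed limma at an adjusted p under 0.05. Slco1b2 and Slco1a4 on chromosome 6 and Slc22a26, Slc22a27 and Slc22a29 on chromosome 19 fell, and the other measured neighbours did not pass.

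In pregnant lung 0 of the 42 transporter genes passed limma at an adjusted p under 0.05, where 0.594% of all genes did, and 3 had an unadjusted p under 0.05, where 9.87% of all genes did. Many of the 42 genes read below 5 in lung, where a change could go unseen. The count therefore does not show that these genes were unchanged. The log2 changes ran from -0.26 for Slc47a1 to 0.70 for Slc10a6, with a median of 0.00. The virgin and pregnant lung pools did not overlap for 6 of the 42 genes, 3 higher and 3 lower, where 8.06% of all genes were higher and 10.4% lower in this way, 18.4% in all. Slc10a6, the sulfated steroid carrier gene, read 8.01, 8.31 and 7.81 in virgin and 8.92, 8.62 and 8.68 in pregnant lung. All pregnant pools were higher, and the change of 0.70 ± 0.25 (log2, SE, n = 3 per group) did not pass (limma adjusted p = 0.322). Slco2b1 averaged 5.98 ± 0.081 (SD, n = 3) in virgin lung and read 6.33, 6.23 and 6.41 in pregnant lung, also without overlap, with a change of 0.35 ± 0.10 (limma adjusted p = 0.182). Its further probe sets changed by only 0.08 and 0.20 in lung.

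The prostaglandin carrier gene Slco2a1, whose protein clears prostaglandins from the blood passing through the lung, read 10.93, 10.93 and 11.22 in virgin and 11.08, 11.05 and 11.21 in pregnant lung. The groups overlapped, with a change of 0.08 ± 0.10 (log2, SE, limma adjusted p = 0.901). Slco3a1, Slco4c1 and Slc10a7, which were higher in virgin lung than in virgin liver, had lung changes of -0.20, 0.06 and -0.12. Slc22a5 had one of 0.14 and Slc22a23 one of -0.16. None of these passed.

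**Figure D4:**
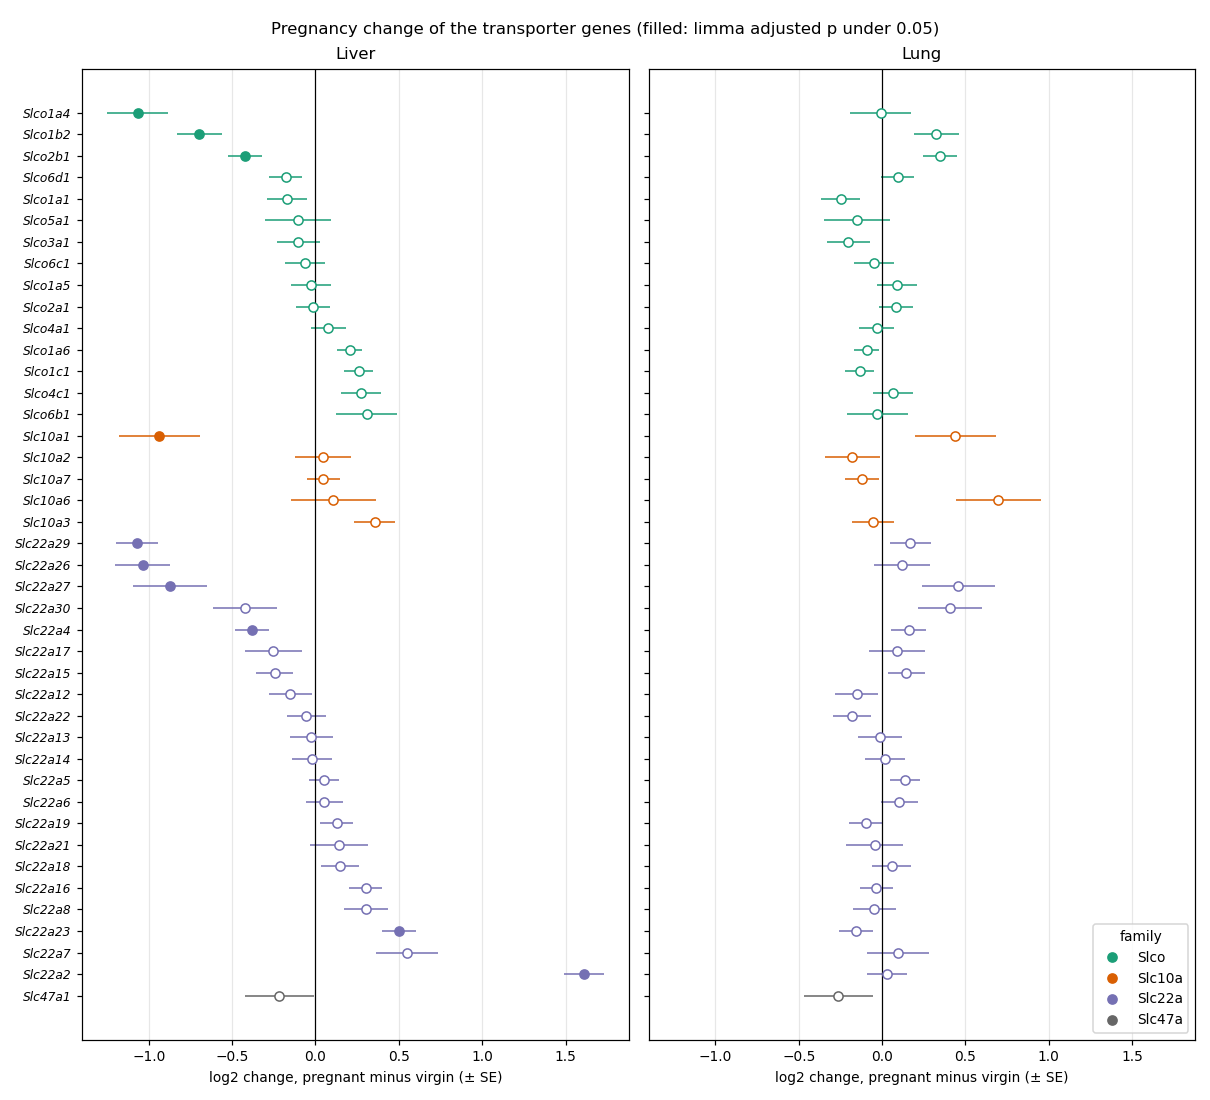
Log2 change, pregnant minus virgin (± SE), of the 42 transporter genes in liver (left) and lung (right), grouped by family; filled points passed limma at an adjusted p under 0.05. In liver 10 points are filled, from -1.07 for Slc22a29 to 1.61 for Slc22a2, and in lung none is.

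The difference between the tissues, the lung change minus the liver change, was tested in the same fit. It passed for 10 of the 42 genes, 23.8%, beside 6.71% of all genes, and these were the 10 genes called in liver. The difference was positive for 8 of them (3.34% of all genes) and negative for Slc22a2 and Slc22a23 (3.37%). The largest differences were -1.58 ± 0.17 for Slc22a2 (log2, SE, limma adjusted p = 6.23e-05), 1.38 ± 0.34 for Slc10a1 (0.0271), 1.33 ± 0.31 for Slc22a27 (0.0191) and 1.24 ± 0.18 for Slc22a29 (0.000726). For Slc22a2, Slc10a1, Slc22a27, Slc22a29, Slc22a26, Slc22a4, Slco1a4 and Slco1b2 the lung values lay below 5, so the lung side of the difference may hold little signal. The virgin liver values of Slc22a2 and all liver values of Slc22a4 lay below 5 as well.

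The rest of the bile salt route was read from a list of 43 genes, of which 40 were measured. In liver 4 rose, 13 fell and 23 did not pass, so 42.5% were called, with a median log2 change of -0.28. Over all genes 13.6% were called, 6.02% higher and 7.62% lower, and the median was -0.01. Most of the 40 genes read above 5 on at least 3 arrays. When only genes above this limit were fitted, 1135 of 12493 were called higher in liver and 1592 lower. By role, 1 of 14 exporters rose and 6 fell, 1 of 7 synthesis and conjugation genes rose and 3 fell, 1 of 16 regulators rose and 2 fell, and 1 of 3 scaffold genes rose and 2 fell. In lung 1 of the 40 was called, beside 0.594% of all genes. It was the nuclear receptor gene Nr5a2, with a change of -0.70 ± 0.13 (log2, SE, limma adjusted p = 0.0349) at values of 3.07 to 4.10.

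Abcc3, the basolateral pump that returns bile salt and drug conjugates to blood, read 9.65, 9.75 and 9.76 in virgin and 6.29, 6.52 and 6.81 in pregnant liver. All pregnant pools were far lower, a 9.07-fold fall (log2 SE 0.12, limma adjusted p = 8.31e-10). The sterol exporter genes Abcg5 and Abcg8 changed by -1.29 and -0.84, and Abcc4, another basolateral pump gene, by -0.75, with -0.90 within pools 1 and 2 and -0.44 within pool 3. Cyp27a1 of the alternative bile acid pathway changed by -0.89 (-1.03 within pools 1 and 2, -0.60 within pool 3) and Baat, which conjugates bile acids with taurine or glycine, by -0.75 (-0.87 and -0.52). Cyp7b1 of the same alternative pathway rose by 0.81, and Ghr, the growth hormone receptor gene, by 1.03. The adjusted p of these 8 genes ran from 8.31e-10 for Abcc3 to 0.0147 for Baat.

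The following genes of this route that did not pass were singled out after their values were seen. Abcb11, the canalicular bile salt export pump gene, read 11.19, 10.99 and 11.23 in virgin and 10.92, 11.02 and 11.11 in pregnant liver, groups that overlapped, with a change of -0.13 ± 0.11 (log2, SE, limma adjusted p = 0.527). Nr1h4, the bile acid receptor gene, had a change of -0.32 (limma adjusted p = 0.159), with -0.48 in pools 1 and 2 and 0.000275 in pool 3. Cyp7a1, the rate-limiting enzyme gene of bile acid synthesis, had a change of 0.46 (limma adjusted p = 0.159), with 0.28 in pools 1 and 2 and 0.82 in pool 3.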

How the data were processed

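The authors deposited log2 values from RMA, a method that subtracts background, puts arrays on one scale and condenses probes to probe sets; per the submitters' processing notes the tools were RMA and affy, with no versions, and which arrays were normalized together is not given in the sources used here. From 45037 probe sets other than the 64 controls, those with a single annotation symbol (34945) were kept, and the one with the highest mean stood for its gene. Of the 42 transporter genes 19 had more than 1. All 18193 genes on 12 arrays entered 1 linear model with a mean per group (4 groups) in limma 3.58.1 in R 4.3.3 (8 residual and 5.6 prior degrees of freedom), two-sided, with Benjamini-Hochberg adjustment over all genes and a threshold of 0.05, and was tested on simulated data.

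Members, gene lists, tests and alternatives were chosen with earlier results of these data known. Genes are named if called for pregnancy, if among the 4 with the highest virgin mean of their family in either tissue, or if among the 6 with the largest tissue difference each way. Of the bile salt route list, up to 8 called genes with the largest liver change and up to 4 of lung are named. Slc10a2, Slc22a6, Slc22a8, Slc22a12, Slc22a16, Slc22a19, Slco1a5, Slco1a6 and Slco1c1 fall outside these rules and were singled out after their values were seen, 6 of them as neighbours of called genes. Alternatives are given in the closing section. Pool numbers 1 to 3 recur in every group without any stated link between animals. The deviations of same-numbered virgin and pregnant pools correlated at -0.11 to 0.11 in liver and -0.01 to 0.10 in lung. Those of same-numbered lung and liver pools correlated at -0.04 to 0.11 in virgin and -0.02 to 0.02 in pregnant mice. The pools were therefore not treated as pairs.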

Additional observations from a re-analysis of the deposited data

Results flagged for a closer look

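The pregnancy change differed between lung and liver for 10 of the 42 transporter genes, 23.8%, beside 6.71% of all genes. The test was that of the difference itself (limma over all 12 arrays, lung change minus liver change on the log2 scale). For all of these genes but Slc22a23 and Slco2b1 the lung values lay below 5, so the lung side may hold little signal. The difference was 1.38 for Slc10a1, 1.06 for Slco1a4, 1.02 for Slco1b2 and 0.77 for Slco2b1. In Slc22a it was 1.33 for Slc22a27, 1.24 for Slc22a29, 1.16 for Slc22a26 and 0.54 for Slc22a4. It was -1.58 for Slc22a2 and -0.66 for Slc22a23, which rose in liver. The adjusted p ran from 6.23e-05 for Slc22a2 to 0.041 for Slc22a4. Slc22a2, Slc22a23, Slc22a26, Slc22a29, Slco1b2 and Slco2b1 passed whichever of the 12 arrays was left out. Slc22a27 did so in 11 of these 12 fits, Slc10a1 in 8, Slco1a4 in 6 and Slc22a4 in 3.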

How the results depend on the processing

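The liver count of transporter genes that rose, 2 with all 12 arrays, was 4 with the mean of all probe sets, with quantile normalization, with the pool number as a replicate block and without both liver arrays that lack spike-in signal, and 2 to 4 when 1 array was left out (4 without virgin or pregnant liver pool 3). Over all genes 1096 were called higher in liver with all 12 arrays. This was 1004 with the mean of all probe sets, 1202 with quantile normalization, 1045 with the block and 866 without both arrays. It was 901 without virgin and 998 without pregnant liver pool 3. The count of transporter genes that fell, 8, was 5 to 8 when 1 array was left out, and 5 without virgin liver pool 1. Over all genes 1386 were called lower with all 12 arrays and 1066 without virgin liver pool 1. The tissue-by-pregnancy count of 8 positive differences was 5 when probe sets with suffixes were left out. That setting measured 37 of the 42 genes. It dropped Slc22a27 and Slc22a29, which have only suffixed probe sets, so their calls were lost without a new measurement. With 1 array left out the count was 5 to 8 (5 without virgin lung pool 2, virgin liver pool 1 or virgin liver pool 3). Over all genes 608 of 18193 differences were called positive, and 468 of 16591 without suffixed probe sets. Without virgin lung pool 2, virgin liver pool 1 or virgin liver pool 3 they were 430, 479 and 534. In lung the count was 0 when any 1 array was left out. With the block the liver call of Slc10a3 (adjusted p = 0.0343) and Slc22a7 (0.0158) was gained and the tissue difference of Slc22a4 lost (0.0611). The tissue difference of Slco1a4 had an adjusted p of 0.0525 with quantile normalization, that of Slco2b1 0.0794 without suffixed probe sets, and that of Slc10a1 0.0947 without both arrays that lack spike-in signal.

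Uncalled values near 0 changed sign. In liver, Slc10a7, Slc22a5 and Slco2a1 had log2 changes of -0.024, -0.055 and 0.064 without both arrays lacking spike-in signal, Slco2a1 had 0.030 with quantile normalization, and Slco3a1 0.015 with the mean of probe sets. With 1 array left out, the liver change ran from -0.18 to 0.33 for Slc10a6, -0.0023 to 0.15 for Slc10a7, -0.0066 to 0.11 for Slc22a5 and -0.058 to 0.054 for Slco2a1. In lung, Slco1a4 had 0.0029 with centred arrays, and with 1 array left out the change ran from -0.0027 to 0.089 for Slc22a18, -0.083 to 0.10 for Slc22a2, -0.028 to 0.25 for Slc22a26, -0.54 to 0.045 for Slc47a1, -0.094 to 0.081 for Slco1a4 and -0.053 to 0.16 for Slco4c1. The causes were not tested.

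Over all genes, 2482 were called in liver and 1557 with the liver arrays alone. In lung the 108 calls became 77 with the lung arrays alone, 207 with a variance trend and robust moderation, and 26 to 112 when 1 array was left out. Signal over background is not given for these arrays, so values below 5 limit what can be said. Counted over both tissues, 14 transporter genes did not read above 5 on at least 3 arrays. Within a tissue the limit reaches further. In virgin liver 16 transporter genes had a mean below 5, Slc22a2 among them, and many read below 5 in lung.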

Other observations

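A probe set that names both Slc22a30 and Slc22a29, and was therefore left out of the gene tests, read a mean of 8.22 in virgin and 6.59 in pregnant liver, a log2 change of -1.63 (limma adjusted p = 6.02e-06 over all probe sets). It is of the same sign as the changes of the separate probe sets, and it lay below 3 in both lung groups.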
